A study of Mus musculus with 2 samples.

Results

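The mucin genes Muc1, Muc4, Muc5ac, Muc5b, Muc6 and Muc13 and the trefoil factor genes Tff1, Tff2 and Tff3 were followed through 2 single-cell libraries of mouse pancreatic tumours. They were taken by symbol from the gene lists of the deposited matrices, where all 9 were found among 32285 genes. Their unique molecular identifiers (UMIs, each standing for 1 captured RNA molecule) were counted in tumour cells, in subsets of tumour cells and in the other cell classes of each library. The series asks how a pancreatic tumour changes when host myeloid cells cannot release Wnt proteins. KPC cells, a mouse pancreatic cancer line, were implanted in the pancreas and the tumours were taken at day 21. The control library came from Porcn fl/fl littermates without Cre, labelled WT, and the knockout library from Csf1r-Cre;Porcn fl/fl mice, so both groups carry the floxed gene. Porcn encodes the enzyme that lipidates Wnt proteins for secretion, and Csf1r-Cre acts in macrophages and other cells of the myeloid lineage. The labels place the deletion in the host, not in the implanted cells, and name neither the KPC line nor the age of the mice. Tumours of 5 mice were pooled per genotype into 1 library. There were thus no replicates, the spread between mice is unknown, and no test between genotypes was possible. Every value below is a description of these libraries, and its exact 95% interval covers counting error only.

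Mucins are large glycoproteins whose serine- and threonine-rich repeats carry dense O-linked sugars. Muc1, Muc4 and Muc13 stay anchored in the apical membrane, whereas Muc5ac, Muc5b and Muc6 are secreted and polymerise into the mucus gel. Trefoil factors are small, cysteine-rich peptides secreted together with mucins that stabilise mucus and help an injured epithelium to close. In the stomach, Tff1 and Muc5ac belong to surface mucous cells, and Tff2 and Muc6 to the mucous cells of the glands, while Tff3 is typical of intestinal goblet cells. The normal pancreatic duct makes little Muc5ac, and gastric mucous genes are switched on in the early lesions of pancreatic cancer.

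On GRCm38 (GENCODE M21), the gel-forming members lie together on chromosome 7. Muc6 (ENSMUSG00000048191) is on the minus strand from 141633456 to 141655319. Muc5ac (ENSMUSG00000037974) lies on the plus strand from 141788972 to 141819231, and Muc5b (ENSMUSG00000066108), on the same strand from 141839070 to 141873084, starts 19839 bases after it ends. The trefoil genes are side by side on the minus strand of chromosome 17, with Tff3 (ENSMUSG00000024029) at 31125306 to 31129646, Tff2 (ENSMUSG00000024028) at 31141049 to 31144282 and Tff1 (ENSMUSG00000024032) at 31161395 to 31165277. Muc4 (ENSMUSG00000079620, 32735886 to 32782391) and Muc13 (ENSMUSG00000022824, 33794037 to 33819934) are both on the plus strand of chromosome 16, and Muc1 (ENSMUSG00000042784) is on the plus strand of chromosome 3 at 89229057 to 89233381. Genes on the opposite strand overlap Muc4, Muc13 and Tff1, and had 28, 35 and 16 UMIs in all kept cells. Whether the counting used strand is not given in the sources used here.

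RefSeq promoter windows (GRCm38.p6, 250 bases before to 50 bases after the start) were matched for 4 of the 9 members, with 2 windows for Muc13. Those of the membrane mucins are shown because all of them had their highest control level in the same tumour subset. Capitals mark matches on either strand to a TATA box (letters TATAAA), a motif of GATA factors (letters AGATAA), one of CDX factors (letters TTTATG) and one of ETS factors (letters CAGGAAG).
Muc1, chr3:89228806-89229105, plus strand: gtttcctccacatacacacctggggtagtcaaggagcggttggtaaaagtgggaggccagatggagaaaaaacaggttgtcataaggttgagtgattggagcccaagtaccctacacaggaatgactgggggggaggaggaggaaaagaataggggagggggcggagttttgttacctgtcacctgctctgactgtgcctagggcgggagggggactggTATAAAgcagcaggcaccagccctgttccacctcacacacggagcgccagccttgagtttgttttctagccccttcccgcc
Muc4, chr16:32735636-32735935, plus strand: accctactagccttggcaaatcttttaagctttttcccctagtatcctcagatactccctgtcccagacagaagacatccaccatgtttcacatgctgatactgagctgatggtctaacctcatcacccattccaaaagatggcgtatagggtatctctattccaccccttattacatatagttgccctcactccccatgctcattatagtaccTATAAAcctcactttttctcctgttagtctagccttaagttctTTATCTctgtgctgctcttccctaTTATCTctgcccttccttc
Muc13, first window, chr16:33793787-33794086, plus strand: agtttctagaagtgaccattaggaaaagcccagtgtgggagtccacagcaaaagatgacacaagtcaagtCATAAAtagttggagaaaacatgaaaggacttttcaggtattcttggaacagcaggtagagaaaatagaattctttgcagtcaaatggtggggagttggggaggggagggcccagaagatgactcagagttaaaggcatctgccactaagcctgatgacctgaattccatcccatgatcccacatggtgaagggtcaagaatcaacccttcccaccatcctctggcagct
TATAAA stood 31 bases before the start of Muc1 and 36 bases before that of Muc4. AGATAA was found on the reverse strand, as TTATCT, 7 and 31 bases after the start of Muc4. TTTATG was found in reverse, as CATAAA, 180 bases before the start in the first Muc13 window. CATAAA differs from TATAAA in its first letter, and no match overlapped another. Of 32851 promoter windows of the same length, 13.6% held TATAAA, 11.2% AGATAA, 11.9% TTTATG and 13.3% CAGGAAG. A match describes the letters of a window and is not a bound factor.

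After filtering, 11516 control and 10467 knockout cells were kept, and clusters were named from marker genes, so each class name below means cells like that type. Cells of the keratin-expressing clusters, called tumour cells here, made up 9362 control and 5663 knockout cells, although the labels call the cells tumour-infiltrating. Median depth of tumour cells was 13264.5 and 14873 UMIs. Krt8, Krt18, Krt19 and Cdh1 marked them as epithelial, with Krt18 at 1749 and 1962 CPM (UMIs of the gene per 1000000 UMIs of the group, the scale of all levels below) in control and knockout. Epcam was nearly absent from them, at 2.53 and 0.944 CPM, as was Cldn4 at 0.0202 and 0.0629 CPM, while the mesenchymal gene Vim was at 4087 and 5006 CPM. Porcn itself had 12 UMIs in 543 control and 5 in 578 knockout monocyte/macrophage cells, or 3.99 CPM (2.06 to 6.97) and 1.55 CPM (0.504 to 3.62), with overlapping intervals. The labels do not say which part of Porcn is floxed, so its 3′ counts may not report the deletion. The libraries shared 46 cell barcodes, 38 of them kept in both, and without those cells the log2 ratio of Muc6, which moved most, went from 0.56 to 0.60.

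In the control library all members but Muc6 had most of their UMIs in tumour cells, and in the knockout Muc6, Muc13, Tff2 and Tff3 did not. In the control library, tumour cells held 98.1% of all Muc5ac UMIs, 96.9% of Muc5b, 91.6% of Muc1, 97.5% of Muc4, 96.9% of Muc13, 95.6% of Tff1, 81.8% of Tff2 and 97.2% of Tff3, but 16.25% of Muc6. In the knockout library the share stayed above 90% only for the paired gel mucins, at 91.2% for Muc5ac and 91.8% for Muc5b. There it was 64.5% for Muc1, 62.5% for Muc4, 67.9% for Tff1, 29.8% for Tff2, 33.3% for Muc13 (6 UMIs), 8.49% for Tff3 (9 UMIs) and 7.74% for Muc6. The largest part of the knockout rest lay in a small Epcam-high epithelial cluster for Muc1, Muc4, Muc6 and Tff2, followed for Tff2 by acinar-like cells. For Muc5ac and Muc5b it lay in acinar-like cells, and for Tff1 and Tff3 in 1 cell of the dendritic cluster. T cells held 187 knockout Tff1 UMIs and 7 of the 64 of Muc4. For Muc13, 8 of 18 knockout UMIs lay in mixed cells, set apart from the tumour cells, and 3 in fibroblasts.

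**Figure D1:**
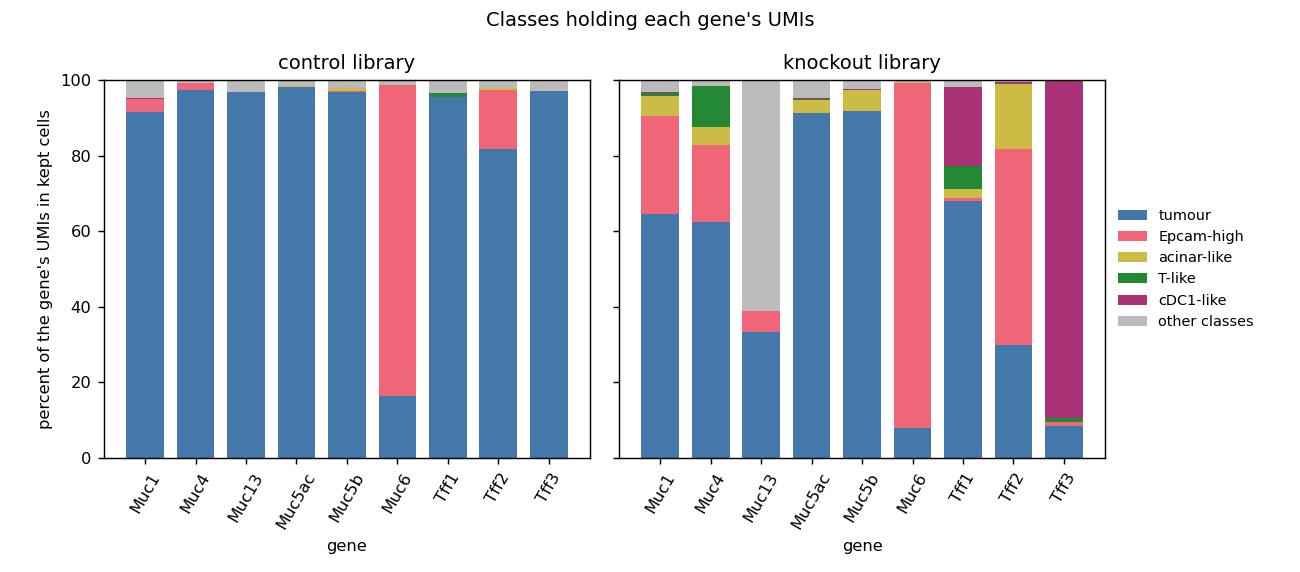
Percent of each gene's UMIs (y axis) held by tumour cells and other cell classes in the control (left) and knockout (right) library. Muc6 sat mostly in the Epcam-high cluster in both libraries, and Muc5ac and Muc5b in tumour cells. Knockout Muc13, Muc4 and Tff3 bars rest on few UMIs.

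Across all tumour cells, the abundant gel mucins Muc5ac and Muc5b were nearly level between the libraries, while Muc4, Muc13 and Tff3, each seen in few cells, were several-fold lower in the knockout. Of the 9 members, all with at least 20 UMIs in tumour cells, 3 were at least 2-fold lower in the knockout and 0 at least 2-fold higher. Of all 16893 genes with at least 20 UMIs, 4.08% were lower and 2.56% higher by that measure (6.65% in either direction). The median log2 ratio was -0.49 over the members and -0.080 over all those genes.

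The membrane mucins were sparse and all were lower in the knockout library. Muc1, a signalling mucin with a cytoplasmic tail, had 1381 UMIs in 774 control tumour cells and 633 in 412 knockout tumour cells. That is 9.31 and 6.64 CPM, a log2 ratio of -0.49 (-0.63 to -0.35), which was similar without the 10 highest cells of each library at -0.53. With the Epcam-high cells counted in, it was -0.064; those cells held 50 control and 255 knockout Muc1 UMIs. Muc4, a long mucin that partners the receptor ErbB2 and is known as a marker of pancreatic cancer, had 347 UMIs in 116 control cells but 40 UMIs in 15 knockout cells. Its levels were 2.34 and 0.420 CPM, a log2 ratio of -2.45 (-2.99 to -2.00). The Muc4 UMIs were not the product of 1 cell, for the highest control cell held 20 and the highest knockout cell 8. Muc13, a mucin of intestinal and other columnar epithelia, had 95 UMIs in 21 control cells and 6 UMIs in 6 knockout cells, 0.640 and 0.0629 CPM. Its log2 ratio was -3.14 (-4.83 to -2.17), and 1 control cell held 49 of the 95 UMIs. Without the highest cell of each library the ratio was -2.33.

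Most Muc4 UMIs, and in the control most Muc13 UMIs, sat in a single tumour subset. This subset, led by Lgals4 and Dmbt1 and named intestinal-like from 5 of 9 intestinal markers, held 883 control and 158 knockout cells. It held 288 of 347 control and 37 of 40 knockout Muc4 UMIs, and 79 of 95 control but 0 of 6 knockout Muc13 UMIs. A single control cell held 49 of those 79. Within the subset, Muc4 was at 17.3 CPM (15.4 to 19.4) in the control and 12.1 CPM (8.52 to 16.7) in the knockout, a log2 ratio of -0.48 (-1.05 to -0.021). The subset made up 9.43% of control and 2.79% of knockout tumour cells. With all subsets given the same weight in both libraries, Muc4 had a log2 ratio of -0.92 over all tumour cells and was no longer 2-fold lower. Over tumour cells outside the subset the log2 ratio was -3.39 for Muc4, from 62 UMIs in both libraries together, and -0.77 for Muc13, from 22. The 9 intestinal markers together were at 141 CPM in control and 58.1 CPM in knockout tumour cells, where Cdx1 was at 0. Most of that sum was Lgals4, with 16263 of 20869 control and 4048 of 5539 knockout UMIs. The markers gave the subset its name, and their part in the Muc4 and Muc13 levels was not tested.

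Muc5ac and Muc5b were the abundant members, together 0.101% of all tumour cell UMIs in the control and 0.0950% in the knockout. Muc5ac, the main gel mucin of the gastric surface and airway, had 66178 UMIs in 2873 control cells and 40848 in 1563 knockout cells. Its levels were 446 and 428 CPM, a log2 ratio of -0.058 (-0.076 to -0.040). Muc5b, the other large airway mucin, had 83865 UMIs in 5276 control cells and 49777 in 2926 knockout cells, or 565 and 522 CPM and a log2 ratio of -0.11 (-0.13 to -0.098). Without the 10 highest cells of each library the log2 ratios were -0.10 and -0.13. Muc5b was spread more evenly than Muc5ac: 50% of its UMIs lay in 749 control and 431 knockout cells, against 248 and 141 cells for Muc5ac. For comparison, 50% of the UMIs of the keratin Krt18 lay in 1349 and 921 cells.

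The gel mucins were detected together more often than apart in cells with Muc5ac, but many cells with Muc5b had no Muc5ac. After each cell was thinned to 5000 UMIs, Muc5b was detected in 77.4% (75.4 to 79.2) of control tumour cells with Muc5ac and in 38.2% (37.0 to 39.4) of those without it. In the knockout these shares were 77.0% (74.4 to 79.5) and 35.4% (33.9 to 36.8). At full depth, 692 control cells (7.39%) and 388 knockout cells (6.85%) held at least 10 UMIs of each. Cells with at least 10 UMIs of Muc5b and none of Muc5ac numbered 976 and 632, whereas the reverse was seen in 108 and 74. Neither gene was detected in 38.3% of control and 43.7% of knockout tumour cells, a share that also depends on depth.

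Muc6, the gel mucin of gastric glands, was at trace level in tumour cells. It had 39 UMIs in 36 control cells and 37 UMIs in 32 knockout cells, 0.263 and 0.388 CPM, and the interval of its log2 ratio (0.56, -0.13 to 1.25) included 0. No tumour cell held more than 5 of its UMIs. The ratio depended on which cells were counted, at 1.62 with the Epcam-high cells and -1.34 with tumour cells picked singly by their markers.

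Among the trefoil factors, Tff1 and Tff2 were detected in few tumour cells, and a small part of those cells carried most of the UMIs. The median cell with Tff1 held 5 UMIs in the control and 4 in the knockout, and the median cell with Tff2 held 2.5 and 1. Tff1 had 3150 UMIs in 195 control cells and 2082 in 67 knockout cells, 21.2 and 21.8 CPM, and its log2 ratio of 0.041 (-0.040 to 0.12) included 0. This level rested on a handful of cells in the knockout, where 3 cells held 50% of the UMIs, against 17 in the control. Without the 10 highest cells of each library, 2086 and 395 UMIs were left and the log2 ratio was -1.76 (-1.92 to -1.60). Tff2 had 8392 UMIs in 250 control cells and 3608 in 129 knockout cells, 56.5 and 37.8 CPM, a log2 ratio of -0.58 (-0.64 to -0.52). A single knockout cell held 2633 of the 3608, and without the highest cell of each library Tff2 was at 53.0 and 10.2 CPM, a log2 ratio of -2.37 (-2.47 to -2.28). That knockout cell also carried 426 Tff1 and 310 Gkn3 UMIs, 24 of Epcam and 0 of Vim. Cells with at least 10 Tff2 UMIs numbered 92 in the control and 18 in the knockout. Tff3 had 481 UMIs in 26 control cells and 9 UMIs in 3 knockout cells, 3.24 and 0.0944 CPM, a log2 ratio of -4.95 (-6.24 to -4.17). In the control, 3 cells held 50% of the Tff3 UMIs. Acinar RNA differed in the same cells, with the 10 acinar markers all detected and summing to 18.1 CPM in control and 55.2 CPM in knockout tumour cells; its part in the Tff2 level was not tested.

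**Figure D2:**
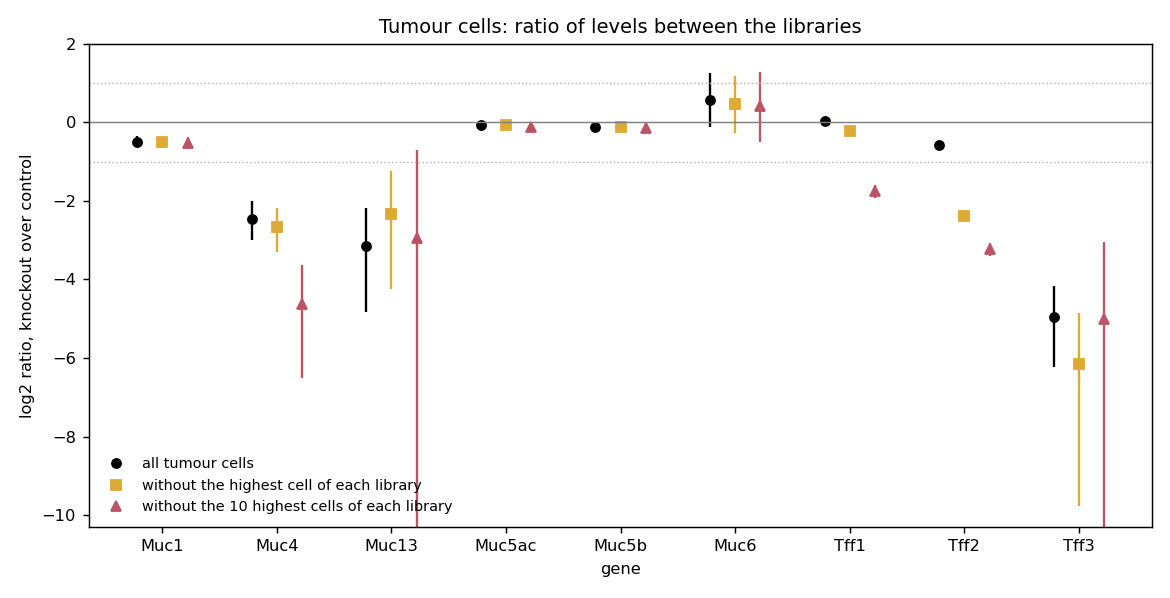
Log2 ratio of the level in knockout over control tumour cells (y axis) for each gene, over all tumour cells and without the 1 or 10 cells of each library with most UMIs of that gene; lines are exact 95% intervals for counting error, and those running off the lower edge have no lower bound. Muc1, Muc5ac and Muc5b barely moved when top cells were left out, whereas Tff1 went from 0.041 to -1.76 and Tff2 from -0.58 to -3.22.

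**Figure D3:**
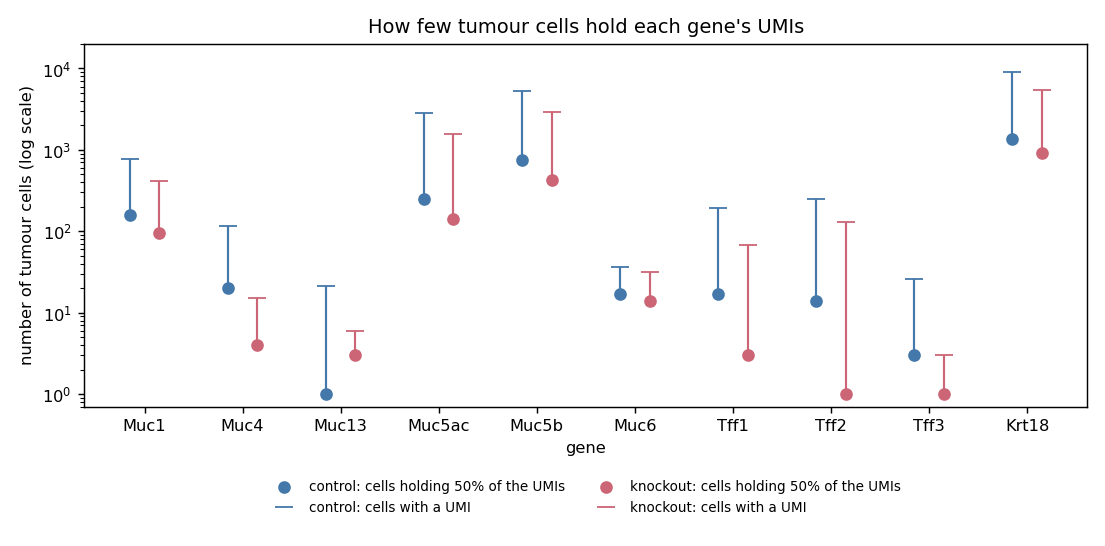
Number of tumour cells with a UMI of each gene (bars) and number holding 50% of its UMIs (points), on a log scale, for both libraries, with Krt18 for comparison. For knockout Tff2 and Tff3 and control Muc13, 1 cell held 50% of the UMIs.

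Tff1 was detected more often in cells with Tff2 than in cells without it. At 5000 UMIs per cell, Tff1 was detected in 44.4% (36.0 to 52.9) of control tumour cells with Tff2 and in 0.725% (0.553 to 0.932) of those without. The knockout shares were 32.9% (22.1 to 45.1) and 0.375% (0.226 to 0.586). At full depth, 92 of 195 control and 37 of 67 knockout cells with Tff1 had no Tff2 UMI. Muc5b was about as frequent with Tff2 as without, at 43.0% (34.7 to 51.5) against 47.4% (46.3 to 48.5) in the control and 51.4% (39.2 to 63.6) against 44.0% (42.6 to 45.4) in the knockout. Muc5ac was detected more often in cells with Tff1 than without, at 35.0% (26.6 to 44.1) against 23.1% (22.2 to 24.0) in the control and 42.9% (27.7 to 59.0) against 20.8% (19.6 to 21.9) in the knockout. Cells with at least 10 Tff2 UMIs had Muc1 at 23.4 CPM (control) and 37.9 CPM (knockout), against 9.15 and 6.498 CPM in cells with no Tff2. They had Dmbt1, a secreted scavenger protein, at 848 and 507 CPM against 65.6 and 13.7 CPM, and Ehf, an epithelial ETS factor, at 80.7 and 14.7 CPM against 9.04 and 3.001 CPM. The knockout values rested on 1 cell for each of these genes: without the cell with most UMIs of the gene, the other 17 knockout cells had Muc1 at 13.9 CPM (6 UMIs), Dmbt1 at 30.1 CPM (13 UMIs) and Ehf at 2.32 CPM (1 UMI). The same removal left the control at 17.4, 745 and 75.1 CPM. Their Krt18 was at 2093 and 2052 CPM, close to the 1742 and 1956 CPM of cells with no Tff2, but their median depth was greater, at 19390 and 27482.5 UMIs against 13185 and 14795.5.

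A UMI of any of Muc5ac, Muc6, Tff1 and Tff2, the gastric mucous members, was found in 25.1% (24.1 to 26.0) of control and 22.2% (21.1 to 23.3) of knockout tumour cells at 5000 UMIs, which left out 940 and 533 shallower cells. Unthinned, the shares were 33.1% and 29.8%. At 5000 UMIs, 1957 of the 2110 control and 1074 of the 1138 knockout tumour cells counted had Muc5ac. The thinned share with any of Muc5ac, Muc6, Tff1 and Tff2 was 7.56% and 7.98% in monocyte/macrophage cells. In fibroblasts it was 5.72% and 3.88%. Neither class secretes mucus, but how much of these shares was free RNA was not tested. The knockout monocyte/macrophage cells with most Muc5ac, at 275 and 170 UMIs, had no Ptprc UMI. Unthinned median depths were 3083 and 4131 UMIs in monocyte/macrophage cells and 12411.5 and 9129 UMIs in fibroblasts. Both tumour shares were above those of monocyte/macrophage cells and fibroblasts. In T cells the thinned share was higher than in those classes, at 18.6% (8.39 to 33.4) of 43 control and 14.4% (11.1 to 18.3) of 388 knockout cells. Most of the T cells counted had Tff1, so the T cell and tumour shares reflect different genes. The control T cell interval included the control tumour share of 25.1%. The knockout T cell interval lay below the knockout tumour share of 22.2%.

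Tumour cells were divided into subsets by clustering without the 9 members, and the 12 subsets that had 100 or more cells in both libraries were compared. Muc1, Muc4, Tff1 and Tff2 were highest in the Lgals4-Dmbt1 subset in both libraries, and Muc5b was highest in a subset led by A230057D06Rik and Btg2 in both. That makes 5 of the 9 members with the same highest subset, a count that was 1 at a coarser clustering (resolution 0.5) and 3 at a finer one (1.5). The libraries were clustered together, and the share of all genes with the same highest subset was not computed, so the count is only a description. Muc1 reached 27.6 CPM (25.1 to 30.3) in the Lgals4-Dmbt1 subset of the control and 30.1 CPM (24.2 to 36.9) in that of the knockout, with 12.0 and 9.27 CPM in the next subset. The knockout Tff1 and Tff2 levels of that subset were 1.34 and 9.04 CPM without its 2 highest cells for each gene, so its knockout rank rested on those cells. Tff1 was at 59.96 CPM in the knockout Slurp1-Lgals2 subset, or 44.3 CPM without its highest cell. Tff2 was at 20.1 CPM in the knockout Slurp1-Cxcl15 subset, or 11.1 CPM without its highest cell. Muc5b was at 1422 and 1367 CPM in the A230057D06Rik-Btg2 subset, and lowest at 97.2 and 32.6 CPM in the Hilpda-2610528A11Rik subset, named interferon-high-like. Muc5ac was lowest in another subset, at 45.9 and 37.2 CPM in Cxcl12-Adamts1.

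**Figure D4:**
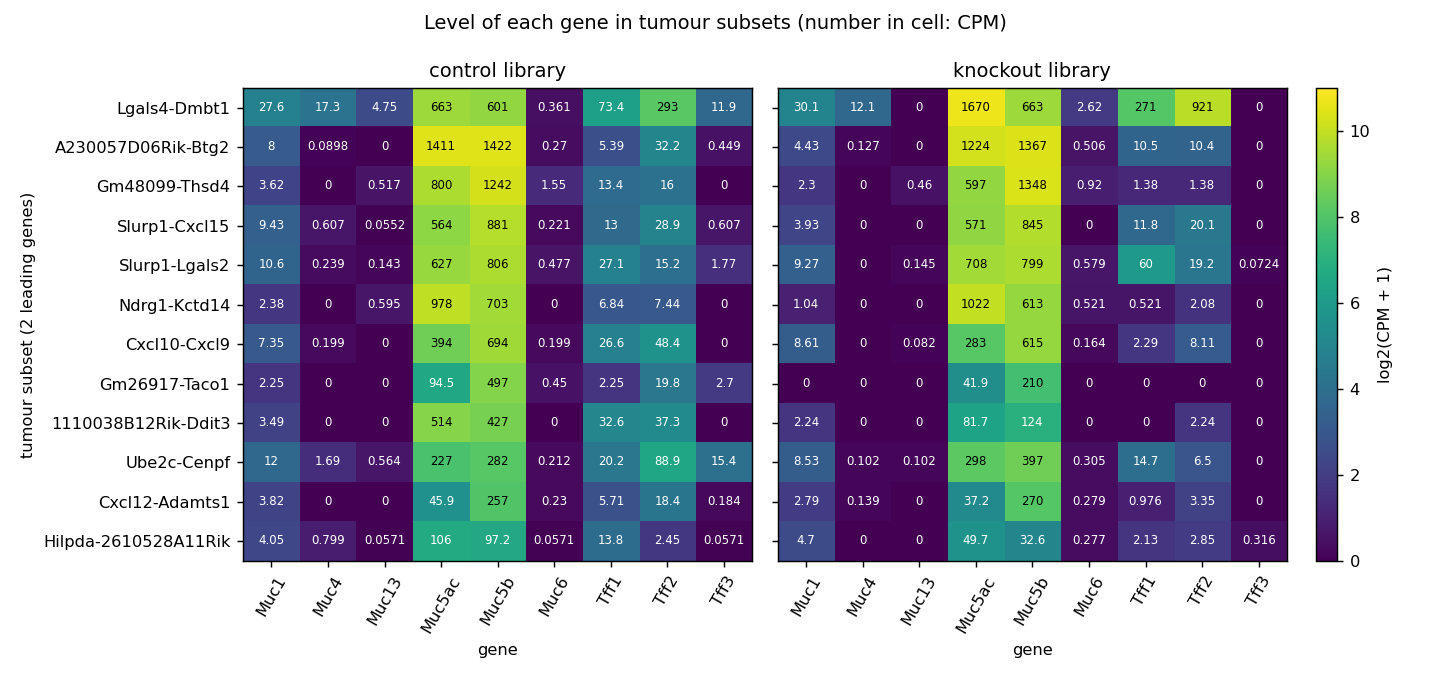
Level of each gene (colour, log2(CPM + 1); printed number, CPM) in the 12 tumour subsets of the control (left) and knockout (right) library, with subsets named by 2 leading genes. The Lgals4-Dmbt1 subset holds the highest Muc1, Muc4, Tff1 and Tff2 levels in both libraries, while Muc5ac and Muc5b are high in many subsets. For knockout Tff1 and Tff2 this rests on 2 cells.

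Muc5ac was within 2-fold between the libraries in 8 of the 12 subsets, higher in the knockout in 1 and lower in 3. Its log2 ratio was 0.019 in the Slurp1-Cxcl15 subset, 0.064 in Ndrg1-Kctd14 and -0.21 in A230057D06Rik-Btg2. In the Lgals4-Dmbt1 subset it had 11024 UMIs in 413 of 883 control cells and 5109 UMIs in 103 of 158 knockout cells, 663 CPM (651 to 676) and 1670 CPM (1625 to 1717). The log2 ratio was 1.33 (1.28 to 1.38), and 1.35 without the highest cell of each library. It was at least 2-fold lower in the knockout in 3 other subsets, with log2 ratios of -1.09 in the Hilpda-2610528A11Rik subset, -1.10 in the Gm26917-Taco1 subset and -2.65 in the 1110038B12Rik-Ddit3 subset. The last of these held shallow cells, with medians of 1874.5 control and 3210.5 knockout UMIs. Muc5b was at 601 and 663 CPM in the Lgals4-Dmbt1 subset (0.14), and lower in the same other subsets, at -1.58, -1.23 and -1.79.

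Within the Lgals4-Dmbt1 subset the Tff1 and Tff2 ratios rested on 2 and 1 knockout cells. Tff1 was at 73.4 CPM in the control, from 1220 UMIs in 56 cells, and 271 CPM in the knockout, from 830 UMIs in 5 cells, 2 of which held 426 and 400. Its log2 ratio of 1.89 was 1.07 without the highest cell of each library and -5.09 without the 2 highest, which left 944 and 4 UMIs. Tff2 was at 293 and 921 CPM there, a log2 ratio of 1.65, which turned to -2.12 without the highest cell of each library. Tff3 (198 control UMIs) and Muc13 had no UMI in the 158 knockout cells, at least 12.1-fold and 4.85-fold lower than the control against a floor of 3 counts. Without the highest control cell these bounds were 8.85-fold and 1.85-fold. In 8 of 12 subsets Tff2 was at least 2-fold lower in the knockout, the lowest being -3.78.

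Over 25 groups of tumour cells (subset by library, at least 100 cells), the genes most like each member were ranked by the Pearson correlation of log2(CPM + 10) among 11376 genes. These groups share libraries, depth and the clustering, so the values are descriptions. Muc5ac was most like Gcnt3 (0.91), which builds branched mucin O-glycans, Fut2 (0.90), which fucosylates them, and Bcas1 (0.89). Muc5b was most like Mmp15 (0.90), a membrane metalloproteinase, Smpd3 (0.89), a sphingomyelinase, and Tmem151a (0.89). Tff2 was most like Lgals4 (0.91), an intestinal galectin, Dmbt1 (0.90) and the carbonic anhydrase Car2 (0.90). Tff1 was most like Tff2 (0.85), Ms4a8a (0.84) and the intestinal keratin Krt20 (0.84), and Muc1 most like Mal2 (0.88), an apical transport protein, Ms4a8a (0.87) and Tff2 (0.87). By these values the members fell in a gel mucin pair (Muc5ac with Muc5b, 0.82) and a trio of Muc1, Tff1 and Tff2 (0.83 to 0.87), with 0.25 to 0.50 between the pair and the trio. The Tff1 and Tff2 levels of the knockout Lgals4-Dmbt1 group rested on 2 cells, and the correlations were not repeated without them. Muc1, Tff1 and Tff2 were all highest in that subset in both libraries, and Lgals4 and Dmbt1 are the genes that name it. How far that subset alone set these correlations was not tested.

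Muc6, with most of the knockout Tff2, lay outside the tumour cells. A cluster of 41 control and 51 knockout cells had Epcam at 923 and 1313 CPM and was set apart for that level after the clusters had been seen. Its ductal genes Cftr (134 and 105 CPM) and Pkhd1 (1369 and 722 CPM) were far above their tumour levels of at most 17.5 CPM. Muc6 had 198 UMIs there in 1 control cell and 437 UMIs in 6 knockout cells. The control cell held 1585 of the cluster's 1600 Tff2 UMIs, all 1250 of Gkn3, a gastric gland peptide, and 113 of Pgc, the pepsinogen C gene. In the knockout, 9 cells with at least 10 Tff2 UMIs held 6231 of the 6279 Tff2 UMIs, 434 of the 437 Muc6 UMIs and 5195 of the 5196 Gkn3 UMIs. The deepest of these knockout cells had 153927 UMIs, far above the knockout median of 19318 in that cluster, and was not called a doublet. These cells held almost no Muc5ac or Muc5b, as the highest 2 Muc6 cells of the knockout had at most 1 Muc5ac UMI and 0 of Muc5b.

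A further source of Tff2 without gel mucin was a set of acinar cells. The acinar-like cluster held 43 control and 302 knockout cells, of which only 2 and 12 drew at least 10% of their UMIs from acinar markers, a threshold chosen after the values were seen (1 and 5 cells lay between 5% and 20%). All 12 of those knockout cells had Tff2, 1906 UMIs in all or 5297 CPM (5062 to 5541), with no UMI of Muc5ac or Muc5b and 19 of Muc1. The 2 control cells had 48 Tff2 UMIs in 1 cell. The other 41 and 290 cells of the cluster had gel mucin and mesenchymal RNA, with Muc5b at 1101 and 798 CPM, Krt18 at 1175 and 1757 CPM and Vim at 3054 and 4237 CPM.

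Low levels of most members appeared in leukocytes, and free RNA was measured by the keratins Krt8, Krt18, Krt19 and Krt7. A member was counted as above free RNA where the lower bound of its leukocyte level, relative to its tumour level, exceeded the same ratio of those keratins. In T, monocyte/macrophage, neutrophil, NK and B cells (groups of at least 100 cells), 7 of the 9 members met this in some class and library, and 5 (Muc1, Muc4, Muc5ac, Muc5b and Tff1) did so without the highest cell. Muc5b in monocyte/macrophage cells and Tff1 in T cells did so in both libraries. In knockout monocyte/macrophage cells Muc5ac was at 49.0% (45.3 to 52.8) of its tumour level, against 12.9% for the keratins, and it stayed above without its highest cell. This came from 676 UMIs in 34 of 578 cells, with 275 in 1 cell and 170 in the next. Those cells had no Ptprc UMI, and 88 and 56 UMIs of Krt18. The level without both was not computed. In the control Muc5ac was below the keratins, at 9.77% against 19.9%. Muc5b in monocyte/macrophage cells was close to the keratin level, at 23.1% of the tumour level against 19.9% in the control and 20.8% against 12.9% in the knockout, but in the control not without the highest cell.

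Tff1 in T cells stood far above that level. When thinned to 5000 UMIs it was detected in 11.6% of control and 10.8% of knockout T cells, against 1.46% and 0.819% of tumour cells. Thinning kept only the deepest T cells, 43 in the control and 388 in the knockout. At full depth the shares over all T cells were 6.88% (3.71 to 11.5) and 3.93% (3.04 to 4.99), against 2.08% and 1.18% of tumour cells. Tff1 had 28 UMIs in 13 of 189 control T cells and 187 UMIs in 64 of 1630 knockout T cells, 40.7 and 27.4 CPM, or 192% (127 to 278) and 126% (108 to 146) of the tumour level. The keratins were at 3.33% and 2.17% there, and Muc5ac at 4.89% and 2.67%. The UMIs were spread, with at most 7 in any control and 13 in any knockout T cell. Both T clusters contributed, with 11 of 129 and 2 of 60 control cells and 37 of 727 and 27 of 903 knockout cells. Other lymphocytes lacked it: 1 of 465 knockout B cells and 0 of 244 knockout NK cells had a Tff1 UMI, as had 0 of 315 control and 0 of 190 knockout neutrophils.

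The T cells with Tff1 carried no other trefoil factor, as none of the 13 and 64 had a UMI of Tff2 or Tff3. Their keratin level was not raised, with Krt18 at 31.2 CPM (18.2 to 49.96) in knockout T cells with Tff1 and 38.8 CPM (34.0 to 44.0) in those without. They were deeper, with median depths of 5058 against 2755 UMIs in the control and 7090 against 3264 in the knockout. Ccr6, a chemokine receptor of several lymphocyte subsets, was at 64.2 CPM (44.7 to 89.3) in knockout T cells with Tff1 and 10.0 CPM (7.72 to 12.9) in those without; the control had 2 and 3 Ccr6 UMIs. Of the genes near Tff1, Tmprss3, 13988 bases away, had no UMI in the T cells with Tff1. Ubash3a, a T cell gene 42596 bases away, was at 55.1 CPM (37.2 to 78.6) with and 73.1 CPM (66.5 to 80.1) without Tff1 in the knockout. The antisense gene that overlaps Tff1 had no UMI in any T cell.

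**Figure D5:**
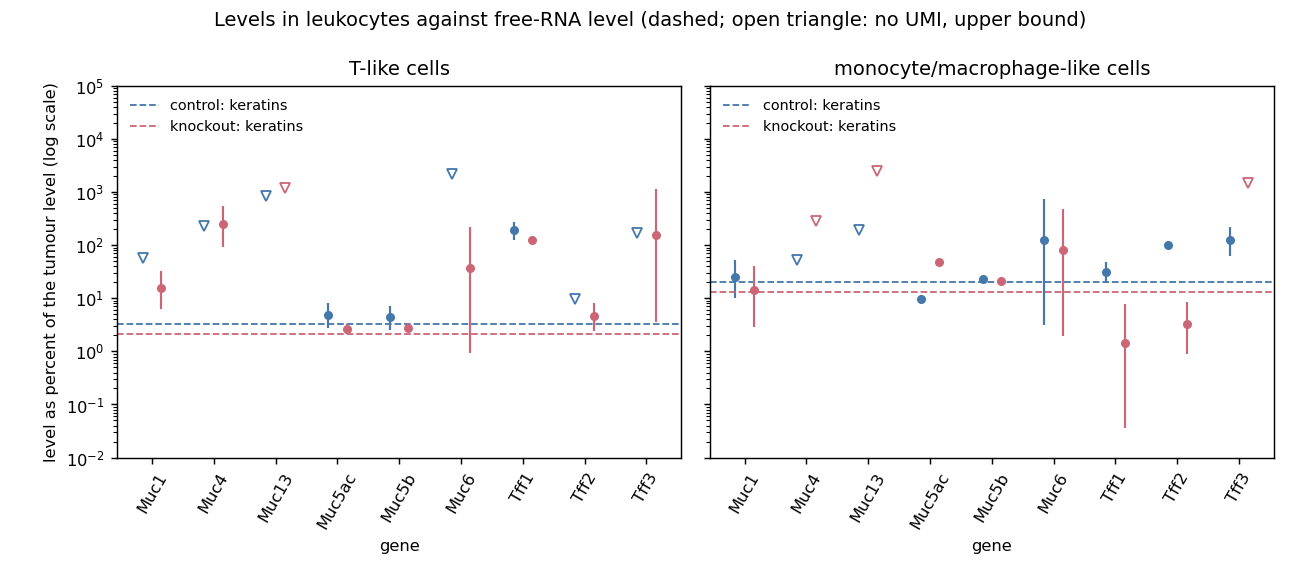
Level of each gene in T (left) and monocyte/macrophage (right) cells as percent of its tumour cell level, on a log scale, with exact 95% intervals; dashed lines are the same ratio for the keratins, and open triangles are upper bounds where no UMI was found. In T cells Tff1 lies above 100% in both libraries, while Muc5ac and Muc5b lie close to the keratin lines.

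The genes that glycosylate and package mucins were compared in the same tumour cells, in 4 lists that do not contain the members. Of 25 listed enzymes of mucin O-glycosylation, 24 were in the files and 19 had at least 20 UMIs; 0 were 2-fold higher and 1 was 2-fold lower, with a median log2 ratio of -0.20. The lowest were Galnt3 (-1.44), which starts O-glycan chains, and B4galnt2 (-0.85), and the highest Galnt6 (0.56) and Gcnt1 (0.48). Of 11 mucus packaging and co-secreted proteins with enough UMIs, 5 were 2-fold lower and 1 higher, with a median of -0.88; over all genes 4.08% were lower and 2.56% higher, with a median of -0.080. Dmbt1 was at 76.4 and 16.2 CPM (-2.24), and Agr2, the disulfide isomerase needed for mucin folding, at 8.80 and 2.83 CPM (-1.63), but 10 cells held 86.8% and 92.96% of its UMIs. Zg16, a lectin, went the other way, at 0.256 and 2.38 CPM (3.19), followed by the goblet protein Clca1 (0.48). Acinar markers were also higher in knockout tumour cells, at 18.1 CPM in the control and 55.2 CPM in the knockout. The part of acinar RNA in the Zg16 level was not tested. As with Muc4, Agr2 was highest in the Lgals4-Dmbt1 subset in both libraries. Dmbt1 was too, but it is one of the genes that lead and name that subset.

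Of 26 mucous and foregut transcription factors, 22 had at least 20 UMIs. Of these, 3 were 2-fold lower and 1 higher, with a median of -0.44 (all genes: 4.08% lower, 2.56% higher, median -0.080). Ehf, at 10.1 and 3.09 CPM (-1.71), and Foxa3 (-1.41, 32 and 7 UMIs) were lowest. Spdef, the goblet cell factor, was at 20 and 27 UMIs (1.05, 0.18 to 1.98), followed by the foregut factor Sox2 (0.30). Of 14 other mucins and mucin-like proteins, 6 had at least 20 UMIs. Of these, 1 was 2-fold lower and 0 higher, with a median of 0.18, beside the same all-gene values. Muc3, a membrane mucin of enterocytes, had 122 UMIs in the control, all in its 10 highest cells, and 0 in the knockout, at least 26.1-fold lower against a floor of 3 counts over the library. The next lowest was Podxl (-0.35), and Cd34 (0.43) and Emcn (0.25), both sialomucins, were highest. Muc2, the goblet cell mucin, had 45 and 31 UMIs (0.11).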

How the data were processed

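The deposited matrices hold unnormalised UMI counts of genes in barcodes, and per the file headers their writer was Cell Ranger 8.0.0; the submitters' processing notes name Cell Ranger 3.1.3 and mm10. The control matrix held 13766 barcodes and 173934025 UMIs, the knockout matrix 12251 and 137527647. Barcodes passed with 500 or more genes and no more than 15% of UMIs from mitochondrial genes, and Scrublet (scanpy 1.11.5, expected rate 0.08) removed 148 control (1.27%) and 341 knockout (3.16%) doublets. Counts were scaled to 10000 per cell and logged. The 2000 most variable genes without the members gave 30 components, 15 neighbours and Leiden clusters at resolution 1. Tumour cells were clustered again in the same way. Leukocyte names needed Ptprc at 100 CPM, and subsets with Ptprc at 20 CPM or more, or Krt18 under 200 CPM, were left out as mixed. Both rules were set after seeing the clusters. Log2 ratios used UMI sums with a pseudocount of 1 UMI; CPM intervals are exact Poisson, shares Clopper-Pearson and ratios exact conditional intervals. Named likeness genes were the 3 with highest correlation for members with at least 1000 tumour UMIs, among genes with at least 500; from each list the 2 highest and 2 lowest ratios were named, and Agr2, Dmbt1, Muc2 and T cell genes are given besides. Intervals and the 2-fold rule were tested on simulated counts. The members, markers and gene lists were chosen with earlier results of these data known.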

Additional observations from a re-analysis of the deposited data

Results flagged for a closer look

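For 3 genes the ratio of knockout to control ran in opposite directions in different tumour subsets, at least 2-fold each way; the difference between subsets was not tested, since each subset had 1 library per genotype. Muc5ac had a log2 ratio of 1.33 in the Lgals4-Dmbt1 subset and -2.65 in the 1110038B12Rik-Ddit3 subset. Tff1 had 1.89 and -5.92 in the same subsets. The first was 1.07 without the highest cell of each library and -5.09 without the 2 highest, which leaves 4 knockout UMIs. Tff2 had 1.65 and -3.78, but the first became -2.12 without the highest cell, so the opposite directions rest on 2 knockout cells for Tff1 and on 1 for Tff2. The Muc5ac value of 1.33 was 1.31 without the 2 highest cells of each library. The 1110038B12Rik-Ddit3 subset held shallow cells (medians of 1874.5 and 3210.5 UMIs) and, in the knockout, 0 Tff1 and 4 Tff2 UMIs.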

How the results depend on the processing

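No paired analysis was possible because each genotype had 1 library. The count of members at least 2-fold apart (3) ranged from 2 to 4 over 13 alternatives, 5 of them chosen after seeing the data. Muc4, Muc13 and Tff3 were lower in the knockout in all 13. The members' median log2 ratio (-0.49) moved to -0.087 with a looser cell filter, -0.038 with subsets weighted alike and -1.76 without the 10 highest cells of each library. Among alternatives added later it moved to -0.074 with the Epcam-high cluster and -0.25 without the Lgals4-Dmbt1 subset. Tff3 moved to -1.56 with a stricter cell filter, under which the knockout cell of the dendritic cluster that held 95 Tff3 UMIs was classed as tumour. Tff1 ranged from -1.76 to 0.72 and Tff2 from -3.22 to 0.68. The 5 members with the same highest subset became 1 at resolution 0.5, 3 at resolution 1.5 and 3 with the stricter filter; the cause was not tested. The share of tumour cells with a gastric mucous member (25.1% and 22.2%) was 18.1% and 16.7% when thinned to 2000 UMIs, 33.3% and 28.3% at 10000, 33.1% and 29.8% unthinned, and 17.4% and 15.5% with at least 2 UMIs, as depth and the minimum set it. The 7 members above free RNA became 5 with Epcam, Cldn4, Cdh1 and Krt7 as the measure, and Tff1 stayed among them in all 4 alternatives. Counts under about 20 UMIs limit Muc13 and Tff3 in the knockout.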

Other observations

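Single cells outside the tumour class carried large amounts of trefoil RNA. In the knockout library, 1 cell of the dendritic cluster had 640 Tff1, 95 Tff3, 56 Tff2 and 93 Muc5ac UMIs, with 1079 of Gkn1 and 903 of Gkn2, which encode gastrokines of the gastric surface. It had 24658 UMIs in all, 44 of Krt18, 4 of Vim and 14 of Ptprc, and held 89.6% of the library's Tff3. In the control library, 1 cell of the monocyte/macrophage cluster had 169 Tff2, 18 Tff1 and 12 Tff3 UMIs beside 20 of Krt18 and 12 of Ptprc, in 37563 UMIs. Neither was called a doublet.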
